A study of Oryza sativa Japonica Group with 6 samples.

Results

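The comparison of rice seedling shoots after 8 h of air-drying with control shoots was described across transcripts. Transcript models of the rice genome annotation entered it when they had at least 1 RPKM (read number scaled for transcript length and sequencing depth, the unit the authors deposited) in at least 2 of the 4 libraries of both groups. This rule kept 25275 of the 66153 models in the RPKM table. The dehydration group was 2 libraries from shoots of 10-day-old wild-type seedlings of the cultivar Nipponbare that had been dried on a paper towel for 8 h, and the control group was 2 libraries from untreated shoots of the same age and genotype, sampled at the same time. All plants came from germination on Murashige and Skoog medium in sterile boxes under continuous light at a constant temperature. Each library was made from a pool of 20 plants, so that the 2 values of a group show the spread between pools and not between plants. Another 2 libraries, from 11-day-old shoots re-watered for 24 h after the same drying, entered only the estimate of the spread. The seedlings thus lost water in air within hours, unlike plants in slowly drying soil.

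In drying plant tissue the hormone abscisic acid (ABA) accumulates. It is made from carotenoids, with the cleavage of an epoxycarotenoid by NCED enzymes as the step that usually limits the rate. ABA binds receptors of the PYR/PYL family, which then inhibit clade A protein phosphatases 2C (PP2C), and this releases SnRK2 kinases, called SAPK in rice, that phosphorylate bZIP transcription factors at ABA-responsive genes. Among the best known targets are late embryogenesis abundant (LEA) proteins and dehydrins, hydrophilic proteins that also accumulate in drying seeds. Genes for photosynthesis, growth and protein synthesis are commonly repressed under severe water loss.

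The libraries were of similar depth. The mapped reads, relative to control replicate 1, were 0.904 and 0.994 in the dehydration libraries and 1 and 0.919 in the control libraries, as recovered from the smallest steps of the RPKM values. Between 20869 and 22402 transcripts reached 1 RPKM in dehydrated shoots and between 23755 and 24675 in control shoots. On the scale of log2(RPKM + 1) used throughout, Pearson's correlation across transcripts was 0.939 between the dehydration libraries and 0.938 between the control libraries, and 0.604 to 0.678 between a dehydration and a control library. The labelled tissue fitted its markers in the control, where the chlorophyll A-B binding protein LOC_Os11g13890 had 1556 and 1252 RPKM. Its level in dehydrated shoots was 34.6 and 74 RPKM. As markers of other material, the 6 genes of cell division and the cytoskeleton summed to 529 and 566 RPKM in dehydrated shoots, against 316 and 313 RPKM in control shoots. Of this sum most in dehydrated shoots came from LOC_Os10g22520, and the other 5 genes, all with a log2 fold change below 0 and none of them called, summed to 155 and 208 RPKM in dehydrated shoots, against 296 and 282 RPKM in control shoots. The 4 genes of seed storage and oil bodies, of which 2 were tested, summed to 65.6 and 61.0 RPKM in dehydrated shoots, against 36.7 and 31.7 RPKM in control shoots. None of the genes of these lists was at 0 in all 4 libraries. The part of such material in the results was not tested. RNA of whole shoots does not tell fewer cells of a type from less RNA per cell.

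Drying changed the level of a large share of the transcriptome, in both directions. Which direction had more calls depended on the scaling, as given below. For this comparison the paper reports more up-regulated than down-regulated transcripts, the reverse of the main counts given here. A transcript was called when limma's moderated test gave a Benjamini-Hochberg adjusted p under 0.01 and the fold of RPKM + 1 was over 2. By this rule 2514 transcripts were higher in dehydrated than in control shoots, 9.95% of those tested, and 3791 were lower, 15.0% of those tested. The higher calls came from 2241 loci and the lower calls from 3504 loci. The median log2 fold change was 2.13 among higher calls and -2.06 among lower calls. A log2 fold change above 5 was seen in 117 of the higher calls, and one below -5 in 35 of the lower calls.

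The size of the change can be described as a share of the summed RPKM, a unit scaled for transcript length. The transcripts summed were called on these same libraries, so that the shares are no further evidence of a change. Transcripts called higher held 46.0% and 38.9% of the summed RPKM of the dehydration libraries, against 6.10% and 6.81% in the control libraries. Transcripts called lower held 5.62% and 8.55% in dehydrated shoots, against 45.0% and 40.9% in control shoots. Of the transcripts called higher, 170 were listed at 0 in both control libraries, and of those called lower, 221 were listed at 0 in both dehydration libraries.

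Because RPKM is a share of each library, the direction of a small change depends on the scaling. Over all tested transcripts the median log2 fold change was -0.296, and this median was -0.0156 after median-ratio scaling and -0.0390 after quantile normalization. The share of calls that were higher was 39.9% as deposited, 54.6% (3475 higher, 2893 lower) after median-ratio scaling and 48.4% (2916 higher, 3110 lower) after quantile normalization. The counts also depended on single libraries. Without control replicate 1, 337 transcripts were called higher and 134 lower, without control replicate 2 these were 587 and 319, without dehydration replicate 1 they were 895 and 1246, without dehydration replicate 2 they were 1470 and 2553, and without either rehydration library at most 1777 and 2257. Each of these fits has 2 residual degrees of freedom in place of 3 and assumes that a lone library varies as the others do. An exact permutation test of 2 against 2 libraries cannot go below a two-sided p of 0.333, so that the calls rest on the spread shared across transcripts. Among the 186 called transcripts selected for naming, the sign of the change was the same under each alternative setting that tested them. A filter of 5 RPKM kept 177 of them. Every one of the 186 had its 2 dehydration values on one side of its 2 control values. With values so separated, leaving out a library or changing the pseudocount cannot reverse a sign. The same sign in those fits is therefore no further evidence. Such a separation was also seen in 28.8% of all tested transcripts with dehydration above and in 46.7% with dehydration below.

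**Figure D1:**
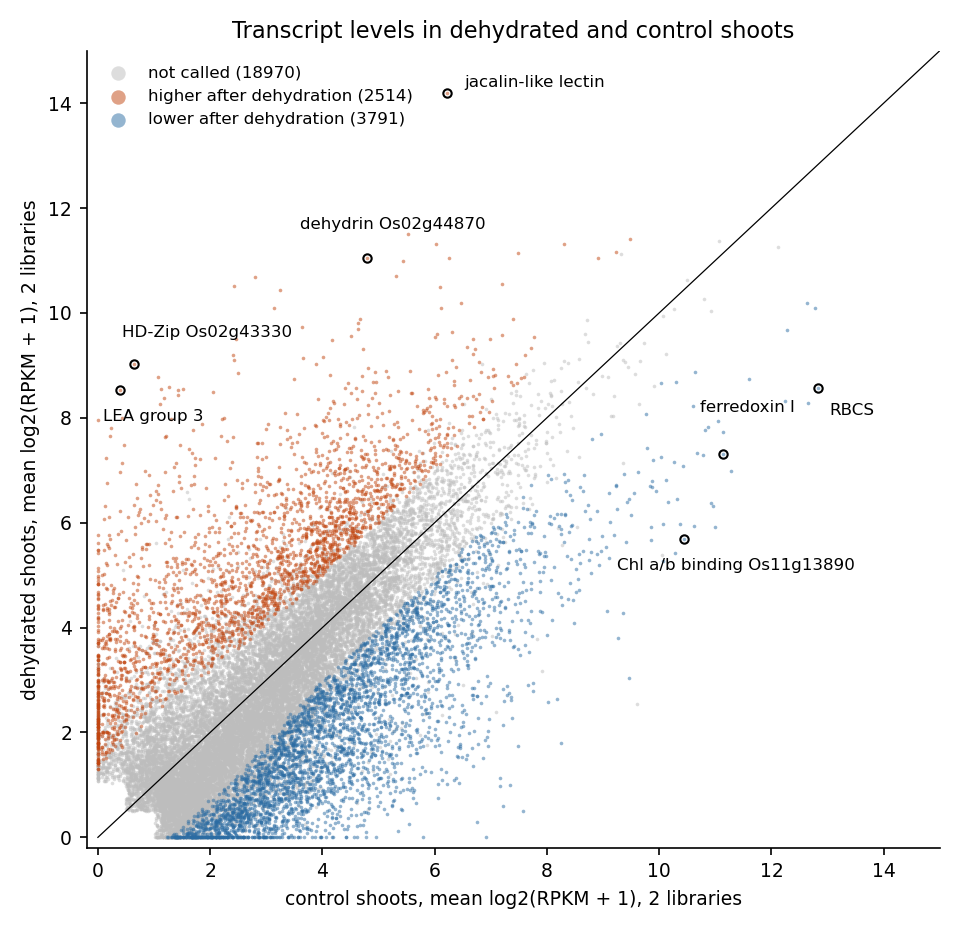
Each point is 1 of 25275 transcripts, placed by its mean log2(RPKM + 1) over the 2 dehydration libraries (vertical axis) and over the 2 control libraries (horizontal axis), with 2514 called higher, 3791 called lower and the line of equal levels. The jacalin-like lectin lies at the top of the dehydration axis, and the small chain of ribulose bisphosphate carboxylase (RBCS) far to the right of the line.

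The strongest rises included seed-type protective proteins, protease inhibitors and a lectin. Among called transcripts with a functional description, the largest gain in level was that of LOC_Os01g24710. It encodes a protein with a jacalin-like lectin domain, a fold that binds sugars. It had 26211 and 13549 RPKM in dehydrated shoots, against 67.1 and 81.2 RPKM in control shoots, a log2 fold change of 7.98 ± 0.44 (standard error, as for every fold change below; adjusted p = 0.00034). Both dehydration libraries were more than 100 times above either control library, although they also differed from each other by about 2 times.

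A row of 3 neighbouring genes of Bowman-Birk trypsin inhibitors, small proteins that block digestive proteases, were among the largest rises. BBTI7 (LOC_Os01g03390) had 3577 and 2386 RPKM in dehydrated shoots, against 50.6 and 39.6 RPKM in control shoots. BBTI4 (LOC_Os01g03340) had 3412 and 1923 RPKM in dehydrated shoots, against 82.1 and 50.6 RPKM in control shoots, a log2 fold change of 5.29 ± 0.42. For BBTI5 (LOC_Os01g03360) the values were 1758 and 1086 RPKM after dehydration and 16.2 and 4.22 RPKM in the control, a log2 fold change of 7.19 ± 0.85. Their coding sequences are related, and how reads shared between such copies were assigned is not given in the sources used here.

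Other genes with a level near 0 in the control reached 182 RPKM or more. The transcript with the largest log2 fold change by the naming rule, 8.40 ± 0.19, was LOC_Os02g43330, a homeodomain-leucine zipper transcription factor, with 561 and 488 RPKM in dehydrated shoots, against 0.73 and 0.397 RPKM in control shoots (adjusted p = 0.00012). The glycine-rich cell wall structural protein LOC_Os02g37480 had 359 and 182 RPKM in dehydrated shoots, against 0.447 and 0.243 RPKM in control shoots, a log2 fold change of 7.58 ± 0.40. LOC_Os05g39250, a protein of the YbhB and YbcL family, had 513 and 270.4 RPKM in dehydrated shoots, against 0.429 and 2.33 RPKM in control shoots, a log2 fold change of 7.42 ± 0.47. In these genes the control libraries held at most 2.33 RPKM.

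LEA proteins and dehydrins were nearly all higher. Of 11 tested members 10 rose and none fell, with a median log2 fold change of 4.61, against -0.296 over all transcripts tested. Summed over the list, the level was 3998 and 3489 RPKM in dehydrated shoots, against 24.6 and 47.9 RPKM in control shoots. The annotation behind this and the other function lists came from genes of hormone-response lists, and 10 of the 11 LEA members belonged to the list of transcripts induced by ABA, in which 51.3% of the tested members were higher. The counts of every function list below stand beside shares of 9.95% higher and 15.0% lower over all tested transcripts. The smallest count with 1 library left out was 5, reached without control replicate 1 and without dehydration replicate 1.

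The dehydrin LOC_Os02g44870 was the most abundant of the 11 list members in dehydrated shoots, with 2045 and 2171 RPKM in dehydrated shoots, against 21.3 and 33.8 RPKM in control shoots, a log2 fold change of 6.24 ± 0.28. The group 3 LEA protein LOC_Os01g50910 had 394 and 349.7 RPKM in dehydrated shoots, against 0.479 and 0.174 RPKM in control shoots, a log2 fold change of 8.14 ± 0.24. A relative of maize RAB-17, LOC_Os11g26570, had 515 and 377 RPKM in dehydrated shoots, against 0 and 3.4 RPKM in control shoots, a log2 fold change of 7.72 ± 0.68. These genes were near the floor of the measurement in control shoots and well expressed after drying.

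The dehydrins RAB16B and RAB16C lie beside each other on chromosome 11 and are similar in sequence. RAB16B (LOC_Os11g26780) had 509 and 289 RPKM in dehydrated shoots, against 0.471 and 2.91 RPKM in control shoots, a log2 fold change of 7.32 ± 0.57. RAB16C (LOC_Os11g26760) had 399 and 233 RPKM in dehydrated shoots, against 0.818 and 1.56 RPKM in control shoots, a log2 fold change of 7.15 ± 0.46. In both the first dehydration library was the higher one, and both were far above either control library. A LEA-like protein outside the list, LOC_Os05g46480, had 2267 and 1209 RPKM in dehydrated shoots, against 0.982 and 23.7 RPKM in control shoots, with a gap between its control libraries as well. LOC_Os03g45280, another dehydrin outside the list, was already well expressed in the control, with 1974 and 3293 RPKM in dehydrated shoots, against 343 and 289 RPKM in control shoots, a log2 fold change of 3.01 ± 0.38. The only list member that was not called, LOC_Os03g28260 of LEA group 3, had 3.7 and 0.747 RPKM after dehydration and 0.371 and 1.62 RPKM in the control. Of the 14 called transcripts with the largest rises and LEA genes described, 11 were also called in all 6 fits that each left out 1 library.

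**Figure D2:**
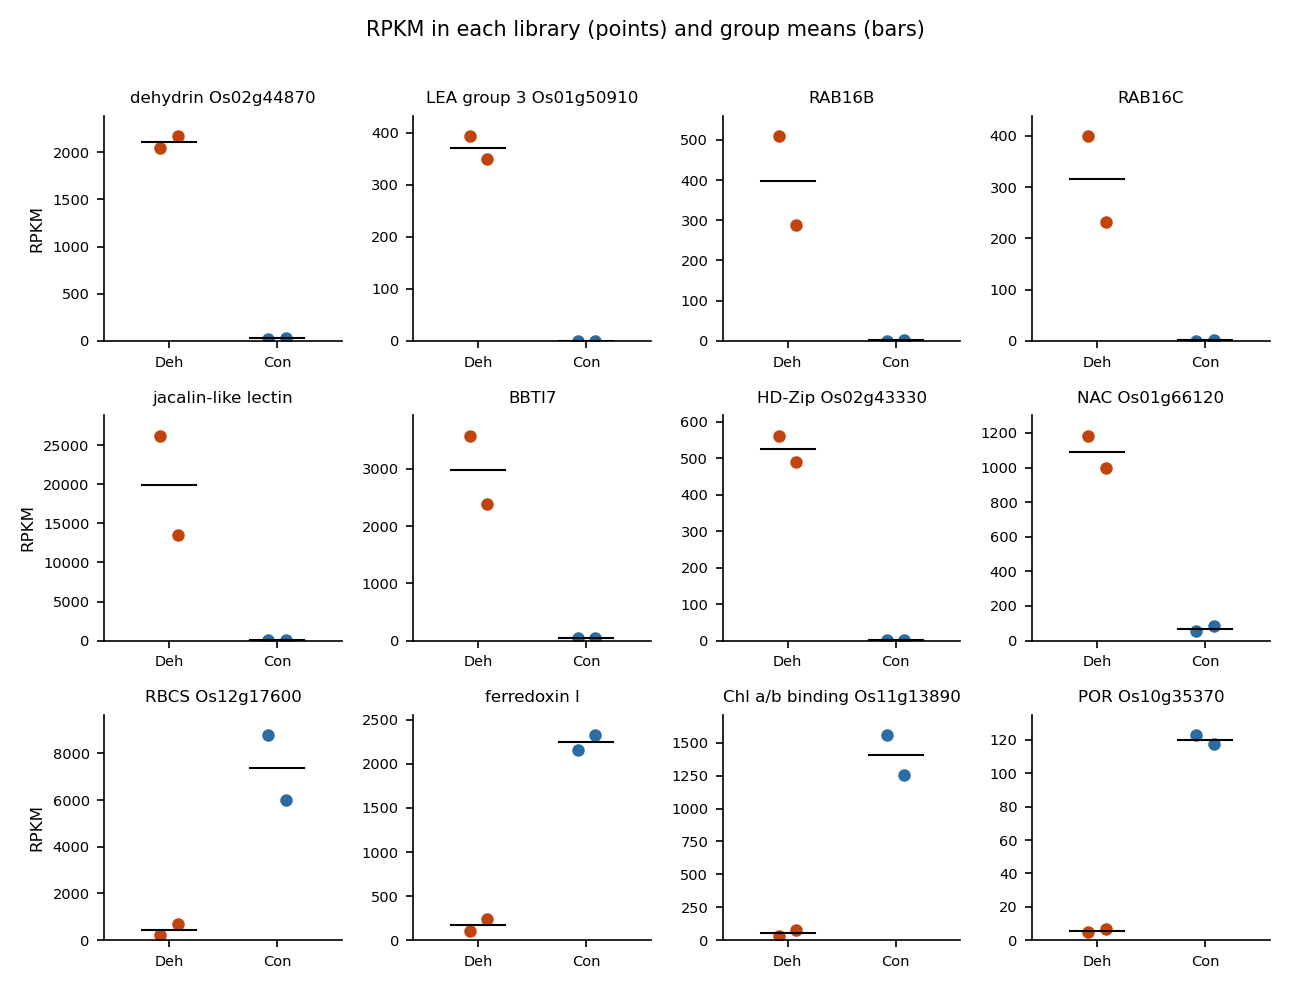
RPKM in each library (points, 2 per group) and the group mean (bar) for 12 transcripts, with dehydrated shoots (Deh) left of control shoots (Con) and a vertical axis from 0 in each panel. In the upper 8 panels both dehydration libraries lie above both control libraries, and in the lower 4 panels, genes of photosynthesis and chlorophyll synthesis, both lie below.

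The order of the function lists by their median ran from LEA proteins and PP2C at the top to photosystem and chloroplast genes at the bottom. Between these, the lists of sugar and starch metabolism, defence and transcription factors had medians above 0, and the lists of ribosomal proteins, chaperones, cell wall proteins, translation and folding isomerases had medians below that of all transcripts. The lists of lipid enzymes, redox proteins and auxin genes had medians whose sign changed with the scaling, and no direction is given for them. Since the lists were annotated through hormone-responsive genes, they hold only a part of each function, and some genes stand in more than 1 list.

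**Figure D3:**
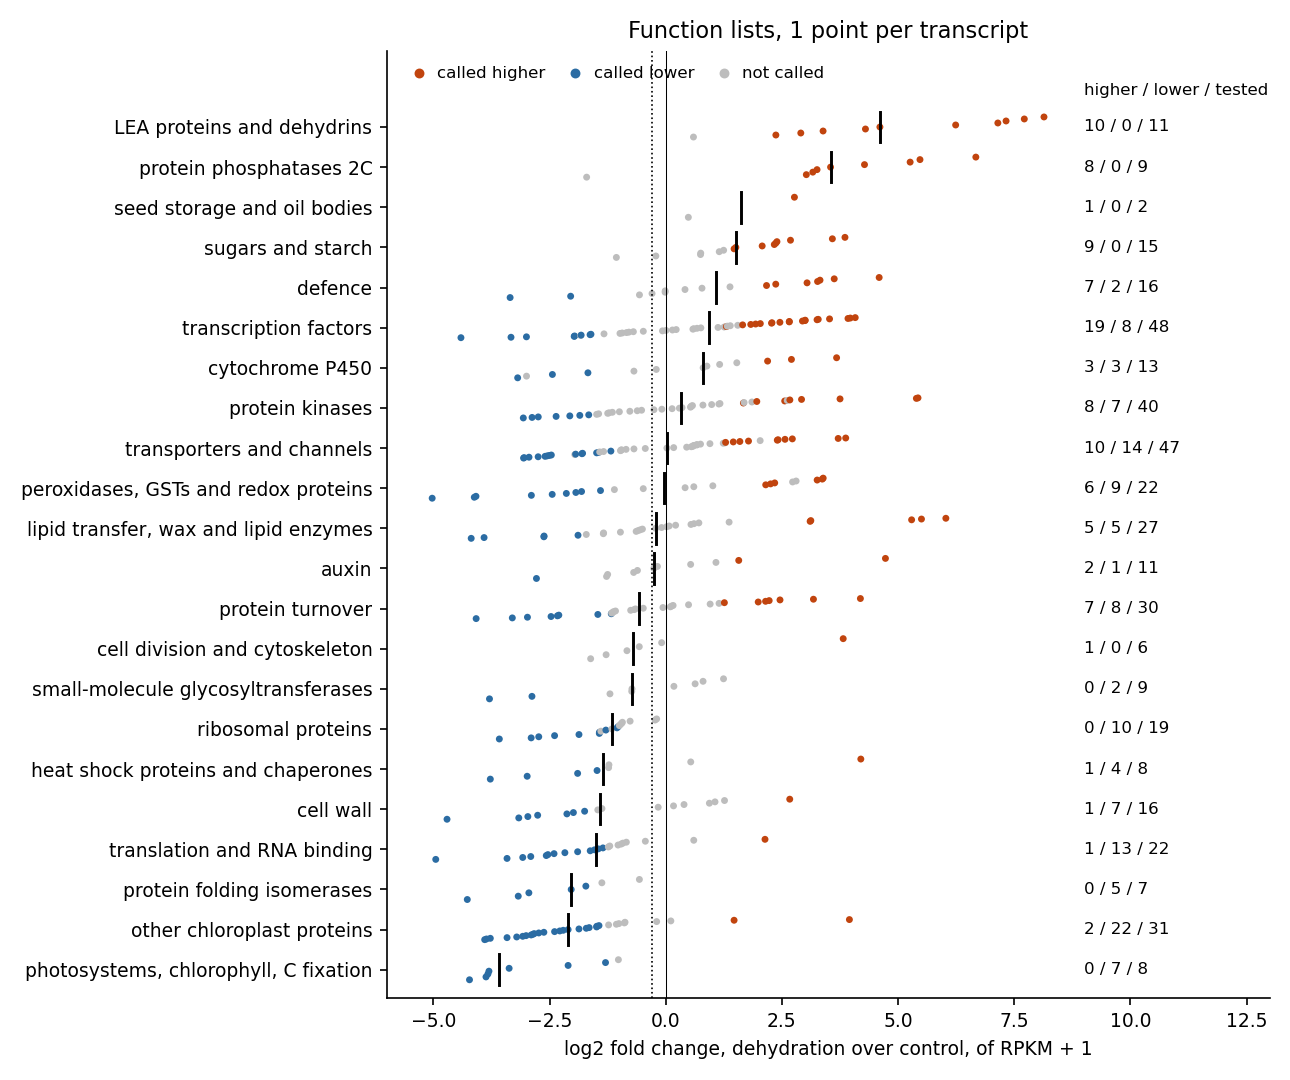
Log2 fold change of RPKM + 1, dehydration over control, for each tested member (points, coloured by call) of 22 function lists, with the list median (black bar), 0 (solid line) and the median of all tested transcripts (dotted line). The numbers at the right give members higher, lower and tested, which were 10, 0 and 11 for LEA proteins and 0, 7 and 8 for photosystems, chlorophyll and carbon fixation.

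Protein phosphatases 2C, a family that includes the negative regulators of ABA signaling, rose in 8 of 9 tested members, with a median log2 fold change of 3.55. Of the 9 members 8 belonged to the list of transcripts induced by ABA, in which 51.3% of the tested members were higher. Their summed level was 1295 and 1278 RPKM in dehydrated shoots, against 83.4 and 46.4 RPKM in control shoots. LOC_Os06g48300 led the list with 579 and 519 RPKM in dehydrated shoots, against 3.51 and 5.4 RPKM in control shoots, a log2 fold change of 6.67 ± 0.22. PP2C9 (LOC_Os09g15670) had 93.6 and 91.9 RPKM in dehydrated shoots, against 1.25 and 0.986 RPKM in control shoots, a log2 fold change of 5.47 ± 0.19. The call of at least 6 members held when any 1 library was left out. The only member with a lower level, LOC_Os02g17970, was not called and had 0.179 and 6.3 RPKM after dehydration and 13.7 and 5.19 RPKM in the control.

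The study's own list of ABA metabolism and signaling genes held 29 transcripts, of which 13 were called higher and 9 lower. These genes were chosen by the study on the same samples, so that the counts are no independent evidence. In biosynthesis 6 of 15 were higher and 6 lower, in signaling 7 of 12 were higher and 3 lower, and neither of the 2 deactivation genes was called. Without control replicate 1 the 13 higher calls became 7 and the 9 lower calls became 0.

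The NCED step showed the largest rise of the pathway. NCED3 (LOC_Os07g05940) had 123 and 126 RPKM in dehydrated shoots, against 0.303 and 0.33 RPKM in control shoots, a log2 fold change of 6.57 ± 0.20 (adjusted p = 0.00012). NCED2 (LOC_Os12g42280) had 4.14 and 7.08 RPKM in dehydrated shoots, against 0.761 and 0.414 RPKM in control shoots, a log2 fold change of 2.03 ± 0.40. Both were close to 0 in control shoots, and after drying the level of NCED3 was many times that of NCED2.

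Upstream of this step, enzymes of carotenoid synthesis moved in both directions. PSY3 (LOC_Os09g38320), a phytoene synthase that starts the carotenoid pathway, had 91.2 and 124 RPKM in dehydrated shoots, against 5.8 and 6.04 RPKM in control shoots, a log2 fold change of 3.95 ± 0.21. Of the carotene hydroxylases (BCH), LOC_Os03g03370 had 46.3 and 98.9 RPKM in dehydrated shoots, against 3.87 and 5.84 RPKM in control shoots, a log2 fold change of 3.57 ± 0.54. LOC_Os04g48880, the BCH gene that was more abundant in the control, fell, with 5.96 and 7.97 RPKM in dehydrated shoots, against 42.9 and 44 RPKM in control shoots. The 2 genes thus changed places in abundance. The third BCH gene, LOC_Os10g38940, had 20 and 54 RPKM after dehydration and 10.4 and 8.45 RPKM in the control and was not called.

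Lower levels were found in the lutein branch and in the xanthophyll cycle. Lycopene epsilon cyclase (LCYE, LOC_Os02g09750) had 4.45 and 5.02 RPKM in dehydrated shoots, against 21.9 and 20.5 RPKM in control shoots, a log2 fold change of -1.95 ± 0.24. The carotenoid hydroxylase CYP97A3 (LOC_Os02g57290) had 0.211 and 0.766 RPKM in dehydrated shoots, against 10.8 and 10.3 RPKM in control shoots, a log2 fold change of -2.98 ± 0.28. Violaxanthin de-epoxidase (VDE, LOC_Os04g31040), which draws violaxanthin away from ABA precursors, had 1.73 and 5.75 RPKM in dehydrated shoots, against 38.4 and 26.5 RPKM in control shoots, a log2 fold change of -2.94 ± 0.44. All 3 were lower in both dehydration libraries than in either control library. ABA4 (LOC_Os01g03750), needed for neoxanthin synthesis in Arabidopsis, rose instead, with 66.5 and 53.4 RPKM in dehydrated shoots, against 5.99 and 8.7 RPKM in control shoots. GGPS (LOC_Os07g39270), which makes the carotenoid precursor geranylgeranyl diphosphate, was not called, with 4.34 and 4.59 RPKM after dehydration and 1.1 and 1.49 RPKM in the control.

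The last steps, from xanthoxin to ABA, also differed among their genes. The short-chain dehydrogenase SDR (LOC_Os01g12710) had 365 and 293 RPKM in dehydrated shoots, against 54.6 and 74.2 RPKM in control shoots, a log2 fold change of 2.34 ± 0.23. Of the aldehyde oxidases (AAO), LOC_Os07g18162 fell, with 0.604 and 3.43 RPKM in dehydrated shoots, against 14.9 and 15.9 RPKM in control shoots. LOC_Os10g04860 fell as well, with 1.89 and 2.32 RPKM in dehydrated shoots, against 12.4 and 10.3 RPKM in control shoots. In both oxidases the dehydration libraries lay below the control libraries. AAO3 (LOC_Os07g18120) was not called and had 14.1 and 7.61 RPKM after dehydration and 4.56 and 3.72 RPKM in the control. Of the genes that inactivate ABA, the hydroxylase ABA8OX1 (LOC_Os02g47470) had 8.67 and 8.3 RPKM after dehydration and 1.39 and 6.04 RPKM in the control, and the glucosyltransferase ABA-GTase (LOC_Os07g32010) had 15.1 and 9.64 RPKM after dehydration and 3.75 and 6.44 RPKM in the control. Both had dehydration values above the control values, and neither difference passed the test.

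In signaling, 1 receptor gene was lower, while phosphatase, kinase and bZIP genes were higher. The PYR/PYL receptor LOC_Os02g15640 had 17.5 and 24.5 RPKM in dehydrated shoots, against 82.4 and 58.9 RPKM in control shoots, a log2 fold change of -1.70 ± 0.25. A second receptor, LOC_Os03g18600, had 11.6 and 8.4 RPKM after dehydration and 20.9 and 57.2 RPKM in the control and was not called, with control libraries that differed by more than 2 times. Of the phosphatases 5 were higher, among them PP2C4 (LOC_Os03g16170), with 188 and 187 RPKM in dehydrated shoots, against 6.9 and 2.06 RPKM in control shoots, a log2 fold change of 5.26 ± 0.43. Both dehydration libraries of PP2C4 were high and close to each other. PP2C1 (LOC_Os01g40094) rose as well, with 148 and 184 RPKM in dehydrated shoots and 21.4 and 12.4 RPKM in control shoots. PP2C3 (LOC_Os01g62760) had 105 and 146 RPKM after dehydration and 20.4 and 8.06 RPKM in the control. For PP2C5 (LOC_Os05g38290, its second model) the values were 13.2 and 17.5 RPKM after dehydration and 0 and 1.37 RPKM in the control. In all 5 phosphatases the groups did not overlap.

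The kinase SAPK1 (LOC_Os03g27280) had 135 and 82.4 RPKM in dehydrated shoots, against 20.7 and 21.9 RPKM in control shoots, a log2 fold change of 2.25 ± 0.26. Its downstream factor class was represented by bZIP23 (LOC_Os02g52780), with 191 and 229 RPKM in dehydrated shoots, against 16.3 and 13.8 RPKM in control shoots, a log2 fold change of 3.72 ± 0.22. Among phospholipase D genes listed with ABA signaling, PLDα8 (LOC_Os06g40190) fell, with 3.36 and 3.63 RPKM in dehydrated shoots, against 10.6 and 8.69 RPKM in control shoots. The fall of PLDα8 was smaller than these rises. PLDα13 (LOC_Os10g38060, its second model) was not called and had 9.49 and 10.3 RPKM after dehydration and 4.95 and 6.06 RPKM in the control. LOC_Os05g40180, given as PLDα7 in the study's list and as a protein kinase in another of its tables, fell, with 1.49 and 2.18 RPKM in dehydrated shoots, against 21.2 and 15 RPKM in control shoots. Leaving out each of the 6 libraries in turn, 7 of the 23 calls among the PP2C and ABA pathway transcripts were made in all 6 fits, while LOC_Os12g42280 and LOC_Os06g40190 were called in none of them.

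**Figure D4:**
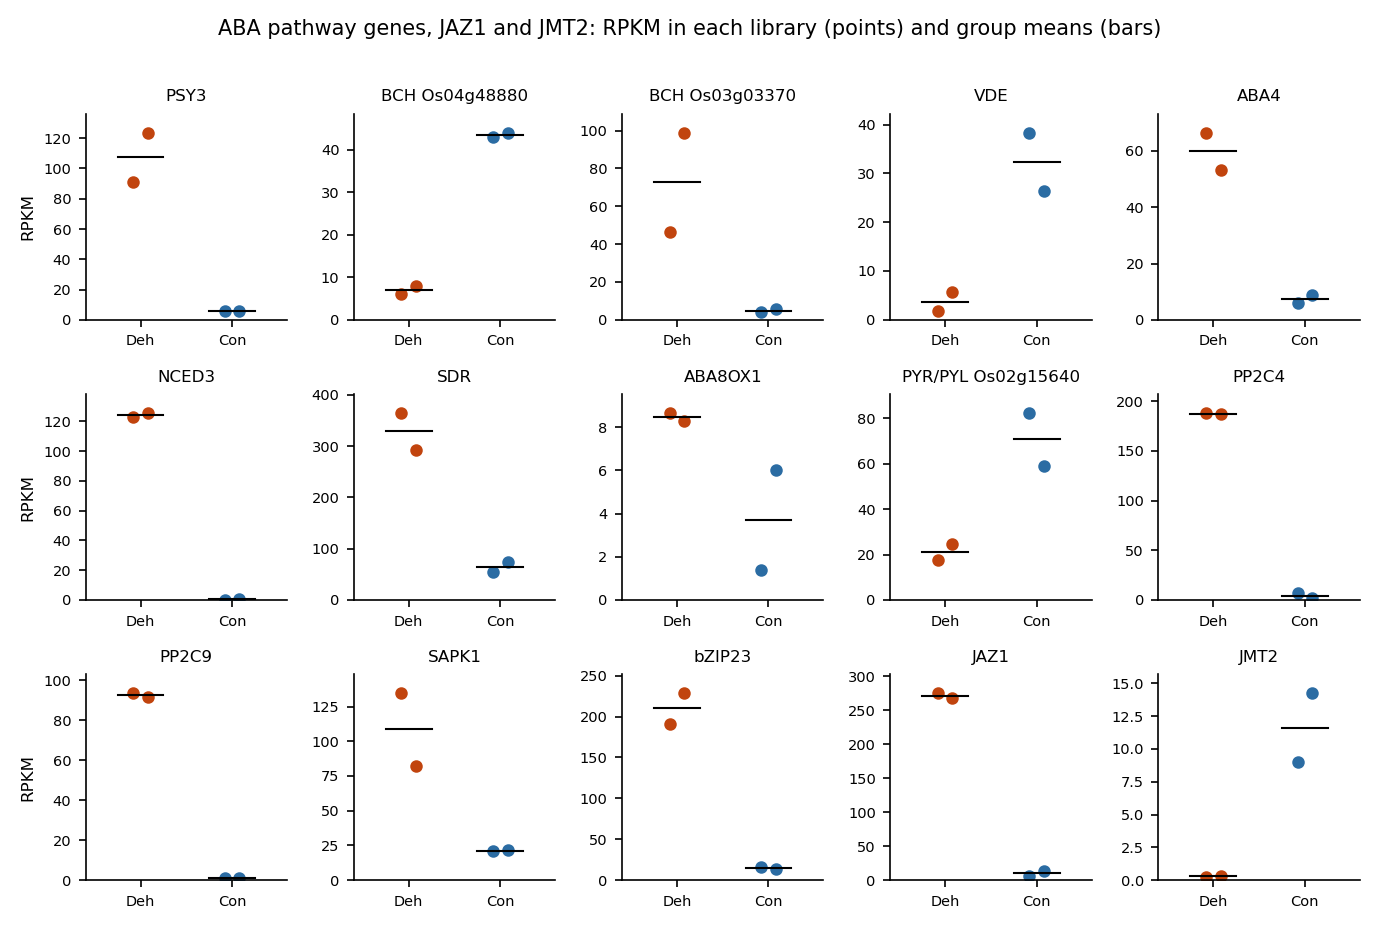
RPKM in each library (points, 2 per group) and the group mean (bar) for 13 genes of ABA synthesis, deactivation and signaling and for the jasmonate genes JAZ1 and JMT2, with dehydrated shoots (Deh) left of control shoots (Con). NCED3 lies at 123 and 126 RPKM after dehydration and under 1 RPKM in the control, while VDE, a BCH gene and a PYR/PYL receptor gene lie lower after dehydration.

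Jasmonate signaling genes rose. JAZ proteins repress jasmonate responses and are themselves induced by the hormone, and 7 of the 8 signaling genes of the study's list were higher, each of the Tify family, with 1 not called. The list was chosen on these samples. JAZ1 (LOC_Os03g08320) had 275 and 268 RPKM in dehydrated shoots, against 5.76 and 14.1 RPKM in control shoots, a log2 fold change of 4.75 ± 0.41. JAZ2 (LOC_Os10g25290) had 249 and 245 RPKM in dehydrated shoots, against 12.5 and 18.5 RPKM in control shoots, a log2 fold change of 3.94 ± 0.25. The other rises were smaller or at a lower level. JAZ5 (LOC_Os03g08330) had 59.9 and 104 RPKM after dehydration and 9.74 and 13.2 RPKM in the control. JAZ6 (LOC_Os03g08310) had 13.3 and 33.4 RPKM after dehydration and 0.468 and 1.53 RPKM in the control. JAZ7 (LOC_Os09g26780) had 53.5 and 34.8 RPKM after dehydration and 11.2 and 5.82 RPKM in the control. Each of these had dehydration values at least 2 times the control values.

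JAZ9 (LOC_Os04g32480) had 14.4 and 22.2 RPKM in dehydrated shoots, against 0.675 and 0.551 RPKM in control shoots. ZIM18 (LOC_Os10g25230) had 10.6 and 26.3 RPKM in dehydrated shoots, against 0.318 and 0 RPKM in control shoots. ZIM8 (LOC_Os09g23660) had 64.7 and 85.5 RPKM after dehydration and 43 and 48.5 RPKM in the control and was not called. In contrast to the repressors, 2 of 3 listed biosynthesis genes, for jasmonic acid methyltransferases that turn the acid into its methyl ester, were lower. JMT2 (LOC_Os06g22440) had 0.246 and 0.335 RPKM in dehydrated shoots, against 9 and 14.3 RPKM in control shoots, a log2 fold change of -3.26 ± 0.30. JMT3 (LOC_Os06g20920) had 3.1 and 3.46 RPKM in dehydrated shoots, against 10.1 and 21.2 RPKM in control shoots, a log2 fold change of -1.87 ± 0.36. OPR7 (LOC_Os08g35740), an oxophytodienoic acid reductase of jasmonate synthesis, had 34.3 and 47.9 RPKM after dehydration and 19.7 and 31.8 RPKM in the control and was not called. In all 6 leave-one-out fits a call was made for 2 of the 9 called jasmonate transcripts, while LOC_Os06g20920 was called in none of them.

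For cytokinin, 9 of 19 tested genes of the study's list were higher and 3 lower. The response regulator RR21 (LOC_Os03g12350) had 132 and 142 RPKM in dehydrated shoots, against 21.8 and 24.1 RPKM in control shoots, a log2 fold change of 2.53 ± 0.16. RR6 (LOC_Os04g57720), a type-A regulator that dampens the response, had 21.1 and 31.5 RPKM in dehydrated shoots, against 3.06 and 5.82 RPKM in control shoots. Of 3 tested deactivation genes, all cytokinin dehydrogenases that degrade the hormone, 2 rose and 1 fell. CKX4 (LOC_Os01g71310) had 16.7 and 15.8 RPKM in dehydrated shoots, against 2.11 and 3.26 RPKM in control shoots, and CKX11 (LOC_Os08g35860) rose too, with 30.9 and 23.8 RPKM in dehydrated shoots, against 11.6 and 8.74 RPKM in control shoots. CKX9 (LOC_Os05g31040) fell, with 0.798 and 1.45 RPKM in dehydrated shoots, against 9.11 and 8.73 RPKM in control shoots. The pseudo-phosphotransfer genes PHP1 and PHP2 both fell. PHP2 (LOC_Os05g09410) had 0.811 and 0.922 RPKM in dehydrated shoots, against 18.7 and 15.2 RPKM in control shoots, and PHP1 (LOC_Os01g54050) had 7.42 and 5.85 RPKM in dehydrated shoots and 31.5 and 19.1 RPKM in control shoots.

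For ethylene, 4 of 10 tested genes were higher and 1 lower. The synthase genes of its precursor ACC went in opposite directions. ACS1 (LOC_Os03g51740) had 3.28 and 13.9 RPKM in dehydrated shoots, against 0.165 and 0 RPKM in control shoots, a log2 fold change of 2.89 ± 0.58, with dehydration libraries that differed from each other by about 4 times. ACS (LOC_Os02g20360) had 0.762 and 0.891 RPKM in dehydrated shoots, against 15.9 and 9.42 RPKM in control shoots, a log2 fold change of -2.86 ± 0.32. ACO1 (LOC_Os09g27820), the oxidase that makes ethylene from ACC, had 55.9 and 85.7 RPKM in dehydrated shoots, against 12 and 13.6 RPKM in control shoots. The dehydration values of ACO1 did not overlap its control values. The transcription factor gene EIN3;3 (LOC_Os07g48630) had 153 and 163 RPKM in dehydrated shoots, against 38.8 and 35.8 RPKM in control shoots.

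For auxin, 6 of 25 genes were higher and 10 lower, with 4 of 9 biosynthesis genes lower. The Aux/IAA repressor gene IAA20 (LOC_Os06g07040) had 42.3 and 52.6 RPKM in dehydrated shoots, against 0.783 and 0.852 RPKM in control shoots, a log2 fold change of 4.73 ± 0.27. IAA19 (LOC_Os05g48590) had 86.7 and 108 RPKM in dehydrated shoots, against 31 and 28.5 RPKM in control shoots. The response factor ARF16 (LOC_Os06g09660) had 15.8 and 10.1 RPKM in dehydrated shoots, against 2.67 and 4.02 RPKM in control shoots. Other Aux/IAA genes fell. IAA17 (LOC_Os05g14180) had 23.2 and 51.7 RPKM in dehydrated shoots, against 289 and 212 RPKM in control shoots, a log2 fold change of -2.80 ± 0.38. IAA10 (LOC_Os02g57250) had 2.35 and 3.27 RPKM in dehydrated shoots, against 34 and 31.5 RPKM in control shoots. The aminotransferase TAA1;2 (LOC_Os01g51980), of the first step of auxin synthesis, had 0.389 and 0.53 RPKM in dehydrated shoots, against 14.8 and 9.65 RPKM in control shoots. Aux/IAA genes were thus among both the rises and the falls. For gibberellin, 1 of 4 genes was called, GA2ox3 (LOC_Os01g55240) of gibberellin deactivation, which rose, with 38.1 and 41.6 RPKM in dehydrated shoots, against 3.53 and 8.99 RPKM in control shoots. Of the 17 called cytokinin, ethylene, auxin and gibberellin transcripts described, 3 were also called in all 6 fits that each left out 1 library, while LOC_Os01g54050 and LOC_Os06g09660 were called in none of them. As with the ABA genes, the study chose these lists on the same samples.

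Lists of hormone-responsive transcripts that the study took from separate microarray data on rice were read against the same comparison. Several array probes can report 1 transcript, and each transcript was counted once. The jasmonate and zeatin lists were not held whole and were not compared here. Of 544 tested transcripts induced by ABA, named ABA(+), 279 were higher and 24 lower, with a median log2 fold change of 1.56. Of 498 tested transcripts repressed by ABA, named ABA(-), 21 were higher and 266 lower, with a median of -1.49. The auxin (IAA) lists moved the same way, with 69 higher and 14 lower of 167 in IAA(+), median 1.38, and 8 higher and 23 lower of 68 in IAA(-), median -1.03. Of the tested IAA(+) transcripts 51 were also in ABA(+), and of the IAA(-) transcripts 28 were also in ABA(-). Over all tested transcripts 9.95% were higher and 15.0% lower. Without control replicate 1, 72 ABA(+) transcripts stayed higher and 17 ABA(-) transcripts lower.

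**Figure D5:**
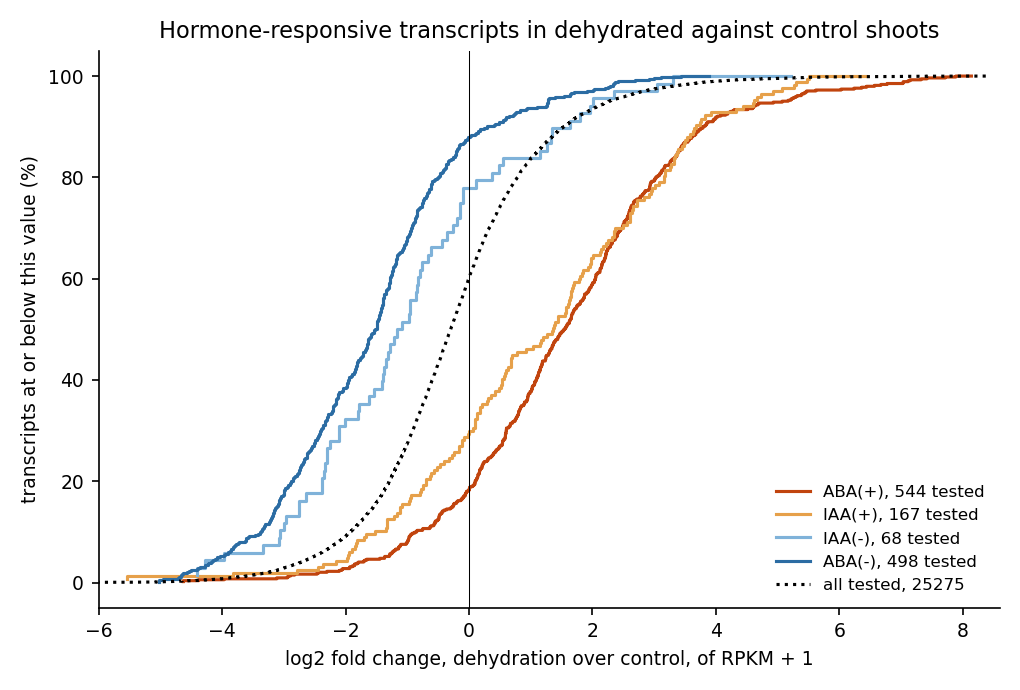
Cumulative share of transcripts (vertical axis, %) at or below each log2 fold change of RPKM + 1, dehydration over control (horizontal axis), for 4 lists of hormone-responsive transcripts and for all 25275 tested (dotted). The curves of ABA(+) and IAA(+) lie to the right of the dotted curve over most of their range, with medians of 1.56 and 1.38, and those of ABA(-) and IAA(-) to the left, with medians of -1.49 and -1.03.

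Of 441 tested transcription factors of the study's list, 184 were higher and 109 lower, and this list too was chosen on these samples. The families differed in their balance. NAC factors, which include known regulators of drought tolerance, were higher in 22 of 39 and lower in 3. AP2-EREBP factors, the family of the DREB and ethylene response factors, were higher in 26 of 43 and lower in 3, and C2H2 zinc fingers were higher in 10 of 13 and lower in 1. Heat stress factors (HSF) were higher in 6 of 8 with none lower. WRKY factors were higher in 10 of 29 and lower in 1, bZIP factors higher in 13 of 31 and lower in 4, and C3H zinc fingers higher in 5 of 10 and lower in 1.

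In several other families more of the listed members were called lower than were called higher. Homeobox (HB) factors were higher in 9 of 27 and lower in 14, and CONSTANS-like (C2C2-CO-like) factors higher in 2 of 10 and lower in 8. The small orphan families were higher in 4 of 19 and lower in 10. MYB-related factors were called higher in 5 of 19 and lower in 6. Their median log2 fold change was 0.756, however, with 12 members above 0 and 7 below, so that no direction is given for them. The mTERF family, which acts on organelle transcripts, was lower in 5 of 6 listed members. All 3 listed sigma factors of the plastid RNA polymerase were lower. In the following families, by contrast, more members were called higher than lower. MYB factors were higher in 14 of 36 and lower in 12, bHLH factors higher in 10 of 29 and lower in 6, and G2-like factors higher in 4 of 14 and lower in 3. With control replicate 1 removed, the 184 higher calls became 38 and the 109 lower calls became 5.

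Single members show the range of levels. LOC_Os01g66120, a NAC gene, was the most abundant factor named, with 1184 and 996 RPKM in dehydrated shoots, against 57.1 and 81.4 RPKM in control shoots, a log2 fold change of 3.97 ± 0.29. The NAC gene LOC_Os11g03300 had 266 and 235 RPKM in dehydrated shoots, against 3.43 and 3.83 RPKM in control shoots, a log2 fold change of 5.76 ± 0.18. In the AP2-EREBP family LOC_Os03g09170 had 63.7 and 101 RPKM in dehydrated shoots, against 0.733 and 0.399 RPKM in control shoots, a log2 fold change of 5.70 ± 0.42. All 3 were separated from the control by a wide margin. The C2H2 factor ZOS3-21 (LOC_Os03g60560) had 169 and 231 RPKM in dehydrated shoots, against 0.703 and 2.1 RPKM in control shoots, a log2 fold change of 6.43 ± 0.36. In the MYB family LOC_Os01g64360 had 149 and 169 RPKM in dehydrated shoots, against 2.42 and 2.01 RPKM in control shoots, a log2 fold change of 5.64 ± 0.27. A second MYB gene, LOC_Os04g43680, had 74.7 and 80 RPKM in dehydrated shoots, against 7.47 and 11 RPKM in control shoots, a log2 fold change of 2.96 ± 0.27.

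The bHLH gene LOC_Os09g28210 rose, with 47.7 and 101 RPKM in dehydrated shoots, against 0.899 and 1.82 RPKM in control shoots, a log2 fold change of 4.93 ± 0.39. In the bZIP family LOC_Os02g09830 had 37.3 and 24.6 RPKM in dehydrated shoots, against 0.927 and 0.403 RPKM in control shoots, a log2 fold change of 4.25 ± 0.31. WRKY10 (LOC_Os01g09100) had 35.2 and 27.7 RPKM in dehydrated shoots, against 1.01 and 2.39 RPKM in control shoots. These 3 were at most 2.39 RPKM in the control. The homeodomain-leucine zipper gene LOC_Os04g45810 rose beside LOC_Os02g43330 described above, with 334 and 287 RPKM in dehydrated shoots, against 23 and 13.1 RPKM in control shoots. LOC_Os02g04640 of the G2-like family had 142 and 87.4 RPKM in dehydrated shoots, against 5.77 and 4.86 RPKM in control shoots. The CCCH zinc finger LOC_Os05g10670 had 50.9 and 61.4 RPKM in dehydrated shoots, against 4.12 and 2.91 RPKM in control shoots. In none of these did a dehydration value reach down to a control value.

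Among factors that fell, the MYB-related gene LOC_Os05g50340 had 0 and 2.4 RPKM in dehydrated shoots, against 42.3 and 34.3 RPKM in control shoots, a log2 fold change of -4.41 ± 0.82. The homeobox gene LOC_Os06g01934 had 0.68 and 2.09 RPKM in dehydrated shoots, against 29.3 and 29.5 RPKM in control shoots, a log2 fold change of -3.74 ± 0.34. LOC_Os06g15330, a CCT and B-box factor of the CONSTANS-like family, had 1.6 and 3.24 RPKM in dehydrated shoots, against 42.1 and 38.2 RPKM in control shoots, a log2 fold change of -3.63 ± 0.28. After drying their levels were at most 3.24 RPKM. OsMYB61 (LOC_Os01g18240), a regulator of cellulose synthesis and nitrogen use in rice, had 0.966 and 1.61 RPKM in dehydrated shoots, against 21.5 and 23.3 RPKM in control shoots, a log2 fold change of -3.37 ± 0.25. LOC_Os02g03960, a bZIP gene with an upstream open reading frame, had 1.63 and 2.69 RPKM in dehydrated shoots, against 32.5 and 32.7 RPKM in control shoots. LOC_Os11g47460 of the MYB family was listed at 0 in both dehydration libraries and had 14.8 and 14.3 RPKM in control shoots. The control libraries of that gene were close to each other. WRKY45 (LOC_Os05g25770), a defence regulator, was the only 1 of the 29 tested WRKY genes of the study's list that was called lower, with 9.89 and 20.7 RPKM in dehydrated shoots, against 53.1 and 55.5 RPKM in control shoots. Leaving out each of the 6 libraries in turn, 10 of the 19 calls among the transcription factors were made in all 6 fits.

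Sugar and starch genes were higher in 9 of 15 tested members, with none lower and a median log2 fold change of 1.51, and 10 of the 15 belonged to ABA(+). The members that rose include enzymes that break down starch or cleave sucrose as well as sugar exporters. Sucrose synthase LOC_Os03g22120, which cleaves sucrose, had 83.9 and 73.3 RPKM in dehydrated shoots, against 5.46 and 3.64 RPKM in control shoots, a log2 fold change of 3.86 ± 0.27. Alpha-amylase isozyme 3D (LOC_Os08g36910) had 19.1 and 8.66 RPKM in dehydrated shoots, against 0.0614 and 0.267 RPKM in control shoots, a log2 fold change of 3.59 ± 0.40. The beta-amylase LOC_Os03g04770 had 169.97 and 215 RPKM in dehydrated shoots, against 42.3 and 32.5 RPKM in control shoots. All were higher in both dehydration libraries than in either control library. A cell wall invertase (LOC_Os02g33110) had 88.6 and 162 RPKM in dehydrated shoots, against 19.1 and 16.5 RPKM in control shoots. Of the MtN3/saliva genes, the family of the SWEET sugar exporters, 2 rose, and LOC_Os12g29220 had 158 and 97.8 RPKM in dehydrated shoots, against 45.2 and 41 RPKM in control shoots. Leaving out control replicate 1, the call of 1 of the 9 genes held.

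A trehalose-6-phosphate synthase gene outside this list, LOC_Os02g54820, had 3 tested models, and its main model had 159.6 and 148 RPKM in dehydrated shoots, against 16 and 12.4 RPKM in control shoots, a log2 fold change of 3.36 ± 0.18. Model 1 had 14.8 and 8.53 RPKM after dehydration and 0.266 and 0 RPKM in the control, and model 3 had 26.7 and 34 RPKM after dehydration and 4.3 and 4.23 RPKM in the control. All 3 models rose. The phosphatase gene LOC_Os03g49440 had 485 and 346 RPKM in dehydrated shoots, against 38.2 and 21.5 RPKM in control shoots, a log2 fold change of 3.79 ± 0.31, and its second model was listed at 0 in both control libraries with 14.4 and 10.1 RPKM in dehydrated shoots. The hypoxia-responsive family gene LOC_Os02g37930 had 216 and 339.97 RPKM in dehydrated shoots, against 29.4 and 35.6 RPKM in control shoots, a log2 fold change of 3.03 ± 0.43. LOC_Os02g06640, a ubiquitin family gene, was abundant in both groups and rose, with 2239 and 2014 RPKM in dehydrated shoots, against 522 and 445 RPKM in control shoots, a log2 fold change of 2.14 ± 0.31.

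Most photosynthesis genes of the lists fell. Of 8 tested genes of photosystems, chlorophyll synthesis and carbon fixation 7 were lower and none higher, with a median log2 fold change of -3.59. Their summed level was 161 and 311 RPKM in dehydrated shoots, against 2725 and 2819 RPKM in control shoots. Among 31 other chloroplast proteins 22 were lower and 2 higher, with a median of -2.10. Most members of both lists were taken from ABA(-), with 6 of the 8 and 28 of the 31, and of all tested ABA(-) transcripts 53.4% were lower. When control replicate 1 was dropped, the lower calls became 1 in each list.

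The small chain of ribulose bisphosphate carboxylase, the enzyme that fixes carbon dioxide, showed the largest loss of RPKM among described transcripts. Only 399 of the 3791 lower calls had a functional description and entered this ranking. LOC_Os12g17600 had 202 and 703 RPKM in dehydrated shoots, against 8767 and 6008 RPKM in control shoots, a log2 fold change of -4.26 ± 0.66. LOC_Os12g19381 had 184 and 552 RPKM in dehydrated shoots, against 5558 and 4221 RPKM in control shoots, a log2 fold change of -3.92 ± 0.59. Another copy, LOC_Os12g19470 in its second model, had 15.9 and 86.7 RPKM in dehydrated shoots, against 1249 and 922 RPKM in control shoots. The copies are near-identical, so that the split of reads among them is uncertain, and the dehydration libraries differed from each other by about 3 times or more in each. The calls of LOC_Os12g17600 and LOC_Os12g19381 were made in 1 of the 6 fits that left out a library.

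Light harvesting and electron transport followed. The chlorophyll A-B binding protein LOC_Os11g13890, given above for its level, had a log2 fold change of -4.76 ± 0.40 in its main model, and 2 other models of the locus were called lower too. Ferredoxin I (LOC_Os08g01380), the electron carrier after photosystem I, had 103 and 238 RPKM in dehydrated shoots, against 2162 and 2323 RPKM in control shoots, a log2 fold change of -3.83 ± 0.43. The PsbP family protein LOC_Os01g59090 of the oxygen evolving complex had 1.81 and 4.79 RPKM in dehydrated shoots, against 65.6 and 51.1 RPKM in control shoots, a log2 fold change of -3.87 ± 0.36. The gamma chain of chloroplast ATP synthase (LOC_Os07g32880) had 16.4 and 38.9 RPKM in dehydrated shoots, against 441 and 329 RPKM in control shoots, a log2 fold change of -3.86 ± 0.42. In these 4 genes the second dehydration library held more than the first.

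NADPH-protochlorophyllide oxidoreductase (LOC_Os10g35370), which catalyses the light-dependent step of chlorophyll synthesis, had 4.69 and 6.4 RPKM in dehydrated shoots, against 123 and 118 RPKM in control shoots, a log2 fold change of -4.22 ± 0.21 (adjusted p = 0.00033). Plastid fructose-bisphosphate aldolase (LOC_Os11g07020) of the Calvin cycle had 280.1 and 656 RPKM in dehydrated shoots, against 3463 and 2804 RPKM in control shoots, a log2 fold change of -2.86 ± 0.47. A chloroplast enzyme of purine synthesis, amidophosphoribosyltransferase (LOC_Os01g65260), had 1.2 and 1.18 RPKM in dehydrated shoots, against 41.1 and 24.2 RPKM in control shoots, a log2 fold change of -3.90 ± 0.29. These falls covered chlorophyll, carbon and purine metabolism. Of the chloroplast proteins that rose, phytoene synthase PSY3 is described with ABA synthesis, and starch synthase I (LOC_Os06g06560) had 15.2 and 12.3 RPKM in dehydrated shoots, against 4.43 and 4.14 RPKM in control shoots. In all 6 leave-one-out fits a call was made for 5 of the 20 called sugar, phosphatase, chloroplast and photosynthesis transcripts, while LOC_Os06g06560 was called in none of them.

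Genes of protein synthesis were lower in many members. The lists include chloroplast proteins, and these were not counted apart from the other members. Ribosomal proteins were lower in 10 of 19 tested members and higher in none, with a median log2 fold change of -1.16. All 21 listed ribosomal proteins, tested or not, summed to 514 and 633 RPKM in dehydrated shoots, against 1561 and 1456 RPKM in control shoots. Translation and RNA-binding proteins were lower in 13 of 22 and higher in 1, with a median of -1.49. These members were mostly taken from ABA(-), with 17 of the 19 and 20 of the 22, and the shares of 52.6% and 59.1% lower stand beside 53.4% in ABA(-) and 15.0% over all tested transcripts. Whether these lists differ from the rest of ABA(-) was not tested. The chloroplast ribosomal protein L21 (LOC_Os02g15900) had 15.8 and 33.1 RPKM in dehydrated shoots, against 194 and 162 RPKM in control shoots, a log2 fold change of -2.90 ± 0.34. A member of the L6 family (LOC_Os03g24020) had 10.4 and 15 RPKM in dehydrated shoots, against 184 and 141 RPKM in control shoots, a log2 fold change of -3.58 ± 0.24. Elongation factor Ts (LOC_Os12g35630), of the bacterial type used in organelles, had 3.15 and 6.85 RPKM in dehydrated shoots, against 70.7 and 50.8 RPKM in control shoots, a log2 fold change of -3.42 ± 0.36.

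No RPKM above 0 was listed for elongation factor P (LOC_Os11g02450) in either library of dehydrated shoots, against 35.7 and 25.1 RPKM in control shoots. The only member of the translation list that rose was a DEAD/DEAH box RNA helicase (LOC_Os06g48210), with 7.27 and 2.96 RPKM in dehydrated shoots, against 0.0755 and 0.575 RPKM in control shoots. In the fit lacking control replicate 1 the lower calls became 1 in each of the 2 lists, and after median-ratio scaling they were 7 ribosomal proteins and 9 translation genes.

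Several protein folding genes fell as well. Peptidyl-prolyl isomerases, which speed up a slow step of protein folding, were lower in 5 of 7 tested members, with a median of -2.03. All 7 were taken from ABA(-), with its 53.4% lower, against 15.0% over all tested transcripts. LOC_Os02g51570 of the FKBP type had 1.84 and 2.92 RPKM in dehydrated shoots, against 73.6 and 54.6 RPKM in control shoots, a log2 fold change of -4.27 ± 0.27. The cyclophilin LOC_Os08g29370 had 7.46 and 17 RPKM in dehydrated shoots, against 125 and 97.2 RPKM in control shoots, a log2 fold change of -3.17 ± 0.37. Heat shock proteins and chaperones were lower in 4 of 8 and higher in 1, with 5 of the 8 taken from ABA(-). The one that rose was the small heat shock protein LOC_Os03g15960, with 174 and 98.9 RPKM in dehydrated shoots, against 6.44 and 5.98 RPKM in control shoots, a log2 fold change of 4.20 ± 0.30. A chaperonin subunit that assists the folding of ribulose bisphosphate carboxylase (LOC_Os12g17910) fell, with 8.68 and 14.8 RPKM in dehydrated shoots, against 186 and 152 RPKM in control shoots. LOC_Os07g33350, with an HSP20-like domain, fell too, with 0 and 0.527 RPKM in dehydrated shoots, against 6.81 and 11.2 RPKM in control shoots. Of the 10 called protein synthesis and folding transcripts described, 3 were also called in all 6 fits that each left out 1 library.

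Cell wall genes were lower in 7 of 16 tested members and higher in 1, with a median log2 fold change of -1.42, and 10 of the 16 were taken from ABA(-). Expansins, which loosen walls during growth, made up 4 of the 7. The beta-expansin LOC_Os10g40720 had 1.34 and 3.79 RPKM in dehydrated shoots, against 84.1 and 88.9 RPKM in control shoots, a log2 fold change of -4.71 ± 0.33. OsEXPA4 (LOC_Os05g39990) had 2.25 and 2.53 RPKM in dehydrated shoots, against 27.2 and 31.7 RPKM in control shoots, a log2 fold change of -3.16 ± 0.18. OsEXPA2 (LOC_Os01g60770) had 2.66 and 4.47 RPKM in dehydrated shoots, against 21.7 and 39.2 RPKM in control shoots. These were far below the control in both dehydration libraries. The member that rose was a xyloglucan endotransglycosylase homolog (LOC_Os06g48180), an enzyme that cuts and rejoins wall polymers, with 137 and 246 RPKM in dehydrated shoots, against 20.2 and 38.8 RPKM in control shoots. With control replicate 1 removed, the call of 2 of the 7 lower genes held.

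Of 27 tested lipid genes 5 were higher and 5 lower, which is 18.5% in each direction beside 9.95% higher and 15.0% lower over all tested transcripts. Of the 9 members annotated as lipid transfer proteins, which carry lipids to the cuticle and other surfaces, 4 were higher, none was lower and 5 were not called, a count made after the values were seen. LOC_Os11g24070 had 202 and 275 RPKM in dehydrated shoots, against 1.93 and 3.5 RPKM in control shoots, a log2 fold change of 6.03 ± 0.27. LOC_Os06g49190 had 100.5 and 220.2 RPKM in dehydrated shoots, against 2.75 and 1.91 RPKM in control shoots, a log2 fold change of 5.50 ± 0.38. The members that fell were an acyltransferase, a lipase, a fatty acid condensing enzyme and 2 desaturases. The acyltransferase family gene LOC_Os02g37654 had 0.803 and 1.15 RPKM in dehydrated shoots, against 29.1 and 41.6 RPKM in control shoots, a log2 fold change of -4.19 ± 0.26. The GDSL lipase LOC_Os01g11730 had 0 and 0.206 RPKM in dehydrated shoots, against 11.6 and 20.7 RPKM in control shoots. Outside the list, the class 3 lipase LOC_Os04g56240 had 0.356 and 1.7 RPKM in dehydrated shoots, against 58.1 and 38.5 RPKM in control shoots, a log2 fold change of -4.66 ± 0.40.

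Redox genes were higher in 6 of 22 tested members and lower in 9. The largest fall by the naming rule was that of a thioredoxin peroxidase (LOC_Os02g09940), with 0.171 and 1.09 RPKM in dehydrated shoots, against 68 and 36.7 RPKM in control shoots, a log2 fold change of -5.03 ± 0.44 (adjusted p = 0.00077). The peroxidase LOC_Os06g20150 had 0 and 0.389 RPKM in dehydrated shoots, against 12.9 and 29.3 RPKM in control shoots. Monodehydroascorbate reductase (LOC_Os08g44340), which regenerates the antioxidant ascorbate, rose, with 229 and 303 RPKM in dehydrated shoots, against 19.7 and 29.8 RPKM in control shoots, a log2 fold change of 3.39 ± 0.33. The groups did not overlap in any of these redox genes. LOC_Os01g58194, a protein disulfide isomerase, rose as well, with 31.3 and 34.1 RPKM in dehydrated shoots, against 2.43 and 2.09 RPKM in control shoots. Different branches of the same broad class thus stood at opposite ends.

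Cytochromes P450 were split evenly, with 3 of 13 tested members higher and 3 lower. LOC_Os12g39310 had 11.5 and 16.1 RPKM in dehydrated shoots, against 0.0922 and 0.201 RPKM in control shoots, a log2 fold change of 3.68 ± 0.51. LOC_Os08g43440 had 0.444 and 0.646 RPKM in dehydrated shoots, against 15.4 and 11 RPKM in control shoots, a log2 fold change of -3.19 ± 0.29. Small-molecule glycosyltransferases were lower in 2 of 9 and higher in none, and of these LOC_Os01g53330 had 0.294 and 0.535 RPKM in dehydrated shoots, against 20.4 and 16.9 RPKM in control shoots. Other strong falls were in single enzymes. Phosphoethanolamine methyltransferase (LOC_Os05g47540), of the synthesis of choline lipids, had 0.857 and 0.858 RPKM in dehydrated shoots, against 46.7 and 37.9 RPKM in control shoots, a log2 fold change of -4.54 ± 0.24. The haloacid dehalogenase-like hydrolase LOC_Os08g37940 had 0.121 and 1.98 RPKM in dehydrated shoots, against 56.5 and 29.1 RPKM in control shoots. A cupredoxin domain protein (LOC_Os06g11490) had 2.19 and 4.91 RPKM in dehydrated shoots, against 75.9 and 105 RPKM in control shoots. Each of these was below 5 RPKM after drying. LOC_Os01g20830, similar to a hydrogenase maturation protein, had 1.07 and 1.29 RPKM in dehydrated shoots, against 49.6 and 34.6 RPKM in control shoots. Leaving out each of the 6 libraries in turn, 7 of the 19 calls among the cell wall, lipid, redox and other enzyme transcripts were made in all 6 fits.

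Transporters and channels moved in both directions, with 10 of 47 tested members higher and 14 lower. The sodium/proton antiporter LOC_Os07g47100, in its second model, had 49.1 and 44.6 RPKM in dehydrated shoots, against 0.883 and 4.66 RPKM in control shoots, a log2 fold change of 3.87 ± 0.61. A MatE family efflux protein (LOC_Os10g20470) had 103 and 93.8 RPKM in dehydrated shoots, against 6.88 and 6.26 RPKM in control shoots, a log2 fold change of 3.71 ± 0.23. Both had control values below 7 RPKM. Among falls, a nitrate transporter homolog (LOC_Os10g22560) had 1.16 and 1.59 RPKM in dehydrated shoots, against 18.6 and 18.8 RPKM in control shoots, a log2 fold change of -3.06 ± 0.22. The amino acid/polyamine transporter LOC_Os01g71720 had 0 and 0.335 RPKM in dehydrated shoots, against 9.49 and 7.7 RPKM in control shoots.

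Nitrogen genes, again chosen by the study on these samples, moved in both directions. In assimilation 4 of 10 were higher and 5 lower. The plastid glutamine synthetase OsGS2 (LOC_Os04g56400), which refixes ammonium in leaves, had 101 and 209 RPKM in dehydrated shoots, against 1126 and 791 RPKM in control shoots, a log2 fold change of -2.69 ± 0.40. Its partner OsFd-GOGAT (LOC_Os07g46460), a ferredoxin-dependent glutamate synthase, had 56.5 and 112 RPKM in dehydrated shoots, against 453 and 393 RPKM in control shoots, a log2 fold change of -2.39 ± 0.33. OsNADH-GOGAT2 (LOC_Os05g48200) fell, with 0.753 and 1.42 RPKM in dehydrated shoots, against 11.7 and 8.05 RPKM in control shoots. Asparagine synthetase OsAS1 (LOC_Os03g18130), which makes a nitrogen-rich transport amino acid, rose instead.

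OsAS1 had 363 and 391 RPKM in dehydrated shoots, against 28.9 and 18.6 RPKM in control shoots, a log2 fold change of 3.96 ± 0.24. OsNADH-GOGAT1 (LOC_Os01g48960) had 135 and 163 RPKM in dehydrated shoots, against 47.2 and 52.8 RPKM in control shoots, a log2 fold change of 1.55 ± 0.19. The aspartate aminotransferase gene OsAAT2 (LOC_Os01g55540) had 176 and 121 RPKM in dehydrated shoots, against 41.7 and 46.4 RPKM in control shoots. The rises were smaller for the last 2 genes than for OsAS1. The cytosolic OsGS1.2 (LOC_Os03g12290) was not called, with 9.55 and 10.2 RPKM after dehydration and 10.2 and 12.6 RPKM in the control. The aminotransferase gene LOC_Os08g41990, outside the list, fell, with 15.9 and 19.3 RPKM in dehydrated shoots, against 111 and 85.1 RPKM in control shoots.

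In nitrogen uptake 3 of 14 tested genes were higher and 3 lower. The ammonium transporter OsAMT1.1 (LOC_Os04g43070) had 5.88 and 11.6 RPKM in dehydrated shoots, against 46.8 and 53.9 RPKM in control shoots, a log2 fold change of -2.46 ± 0.30. OsNPF2.4 (LOC_Os03g48180), a nitrate transporter, had 18.1 and 33.2 RPKM in dehydrated shoots, against 64.1 and 83.1 RPKM in control shoots. OsAAP4 (LOC_Os12g09300), an amino acid permease, had 2.06 and 1.16 RPKM in dehydrated shoots, against 10.3 and 7.03 RPKM in control shoots. Another gene of the same family was among the rises. OsAAP5 (LOC_Os01g65660) had 10.1 and 8.94 RPKM in dehydrated shoots, against 1.12 and 1.65 RPKM in control shoots. OsNRT1.1A (LOC_Os08g05910) had 43 and 59 RPKM in dehydrated shoots, against 18.7 and 24.3 RPKM in control shoots. OsNPF4.1 (LOC_Os11g12740) had 5.24 and 5.4 RPKM in dehydrated shoots, against 1.26 and 1.37 RPKM in control shoots. Their log2 fold changes were at most 2.15, smaller than those of the LEA proteins given above.

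OsLHT1 (LOC_Os08g03350), an amino acid transporter, was counted above with the assimilation genes and not with uptake. It had 159 and 159 RPKM in dehydrated shoots, against 53.1 and 74.9 RPKM in control shoots. Of 5 nitrogen signaling genes 2 were higher and 1, OsMYB61, lower. OsDOF18 (LOC_Os04g58190) had 19.6 and 23.9 RPKM in dehydrated shoots, against 1.06 and 2.05 RPKM in control shoots, a log2 fold change of 3.17 ± 0.28. OsNLP2 (LOC_Os02g04340) had 2.51 and 1.98 RPKM in dehydrated shoots, against 0.0756 and 0.247 RPKM in control shoots, a rise at a low level. In all 6 leave-one-out fits a call was made for 2 of the 20 called transporter and nitrogen transcripts, while LOC_Os12g09300, LOC_Os08g05910, LOC_Os11g12740, LOC_Os08g03350 and LOC_Os02g04340 were called in none of them. Leaving out control replicate 1, none of the calls in nitrogen uptake held.

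Protein kinases were higher in 8 of 40 tested members and lower in 7, with a median log2 fold change of 0.32. The 17.5% that were lower were near the 15.0% over all tested transcripts, where 9.95% were higher. The MAP kinase kinase kinase gene LOC_Os01g50400 had 48.2 and 46.7 RPKM in dehydrated shoots, against 0.119 and 0.13 RPKM in control shoots, a log2 fold change of 5.43 ± 0.22. LOC_Os04g56430, a DUF26 domain protein counted in this list, had 3221 and 860.1 RPKM in dehydrated shoots, against 17.6 and 83.3 RPKM in control shoots, with nearly 4 times as much in the first dehydration library as in the second. Both genes were far lower in each control library. The receptor-like kinase OsWAK82 (LOC_Os09g29540), named by the study outside the list, fell, with 0.276 and 0.817 RPKM in dehydrated shoots, against 19.5 and 15 RPKM in control shoots, a log2 fold change of -3.57 ± 0.35. LOC_Os09g16950, with a protein kinase-like domain, fell too, with 0 and 0.523 RPKM in dehydrated shoots, against 8.69 and 10 RPKM in control shoots.

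Defence genes were higher in 7 of 16 tested members and lower in 2, with a median of 1.08. Thaumatin-like and chitinase genes, which encode pathogenesis-related proteins, were among the rises. The thaumatin-like gene LOC_Os03g14050 had 240.1 and 214 RPKM in dehydrated shoots, against 11.1 and 6.38 RPKM in control shoots, a log2 fold change of 4.59 ± 0.28. The endochitinase LOC_Os06g51060 had 188 and 105 RPKM in dehydrated shoots, against 11.6 and 22.4 RPKM in control shoots. CHIT3 (LOC_Os04g41680), a chitinase named by the study, was not called, with 25.2 and 28.7 RPKM after dehydration and 28.3 and 5.75 RPKM in the control, and its control libraries differed from each other by nearly 5 times. The larger control value lay within the range of the dehydration values. The harpin-induced domain gene LOC_Os07g14740 fell, with 0.858 and 1.87 RPKM in dehydrated shoots, against 18 and 28.2 RPKM in control shoots.

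Genes of protein turnover were higher in 7 of 30 tested members and lower in 8. The RING-type zinc finger LOC_Os06g48040, a domain typical of ubiquitin ligases, had 128 and 151 RPKM in dehydrated shoots, against 14 and 14.9 RPKM in control shoots, a log2 fold change of 3.18 ± 0.18. An F-box gene (LOC_Os04g48270, model number 3) was listed at 0 in both control libraries and had 18.4 and 16.1 RPKM in dehydrated shoots. The serine carboxypeptidase-like gene LOC_Os01g22980 fell, with 0.805 and 4.1 RPKM in dehydrated shoots, against 45.2 and 56 RPKM in control shoots, a log2 fold change of -4.08 ± 0.47. Ubiquitin-related genes were thus among the rises and a protease among the falls. Among cytoskeleton genes the actin-crosslinking family gene LOC_Os10g22520 was the only one called, and it rose, with 374 and 359 RPKM in dehydrated shoots, against 20 and 31.2 RPKM in control shoots. The embryo-specific gene LOC_Os05g07890 rose as well, with 20.3 and 13.8 RPKM in dehydrated shoots, against 1.87 and 1.36 RPKM in control shoots. In both genes the dehydration values lay above the control values. A GTPase-activating protein gene, LOC_Os07g31720, fell, with 36.9 and 32.3 RPKM in dehydrated shoots, against 170.2 and 224 RPKM in control shoots. The cytochrome P450 gene LOC_Os02g02230, named by the study, did not pass the filter, at 0 in both dehydration libraries and 0 and 0.112 RPKM in control shoots. Of the 12 called kinase, defence and turnover transcripts described, 4 were also called in all 6 fits that each left out 1 library.

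Calls were more frequent among abundant transcripts. Below a mean of 1 RPKM 1.45% of transcripts were higher and 3.72% lower, from 1 to 5 RPKM 3.91% and 10.7%, from 5 to 20 RPKM 9.14% and 17.8%, from 20 to 100 RPKM 21.1% and 19.4%, and from 100 RPKM 34.7% and 25.4%. Higher calls thus outnumbered lower calls from 20 RPKM upward. Across the 12 chromosomes the share of transcripts called higher ran from 7.91% on chromosome 11 to 11.6% on chromosome 1, and the share called lower from 13.9% on chromosome 4 to 17.4% on chromosome 11. Models of the same locus are not independent, and 1034 of the higher and 1374 of the lower calls came from loci with several models.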

How the data were processed

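The deposited table holds 1 RPKM value per library for each transcript model. The authors sequenced stranded mRNA libraries on a MiSeq, mapped the reads with CLC Genomics Workbench allowing 1 mismatch against the MSU rice annotation, and computed RPKM there. How reads shared among models were assigned is not given in the sources used here. Because RPKM values are not counts, limma 3.58.1 (R 4.3.3) on log2(RPKM + 1), with 1 fit of 3 groups over 6 libraries and a trend on abundance, replaced the edgeR test of the study, which needs counts. The study's thresholds were kept: adjusted p under 0.01 by Benjamini-Hochberg over 25275 transcripts and a fold over 2. At these thresholds the paper reports more up-regulated than down-regulated transcripts for this comparison. The main counts here had the opposite balance, with 2514 higher and 3791 lower. After median-ratio scaling the counts were 3475 higher and 2893 lower. The cause of the difference from the paper was not tested. The procedure was tested on simulated data. A fold change on this scale understates the change of low transcripts. Tables were made with Python 3.11.15, numpy 2.4.6 and pandas 2.3.3.

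The 2 replicates per group are labelled biological replicates, each a pool of 20 plants. Depth per library was recovered relative to control replicate 1 only, and a depth in reads is not used here. Columns of other series numbered 0. Function lists were made by word searches in the descriptions of the 4 ABA and IAA lists only. These lists hold 1401 transcripts, of which 1193 were tested, with 346 higher and 315 lower. For naming, descriptions from all of the study's annotated tables were used, which have entries for 3799 transcripts. They gave a functional description to 45.9% of the higher and 10.5% of the lower calls. No other annotation was used, because 0 of 39387 reference genes could be matched to a locus. Members and lists were chosen with earlier results of these data known. Named genes are those the paper names, and, in each direction, the 10 largest described folds at a mean of at least 20 RPKM and the 5 largest described RPKM differences, up to 2 called members per function list, all ABA and jasmonate genes, up to 3 per other hormone or nitrogen list, and 1 per transcription factor family of at least 10 members. A few list members outside this rule (a beta-amylase, a cell wall invertase, LOC_Os12g29220, OsEXPA2, LOC_Os06g51060, CKX11, and members that were not called) were added after their values were seen. Promoters were not analysed here.

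Alternatives were pseudocounts of 0.1 and 0.5, other filters, median-ratio and quantile scaling, the 4 libraries alone, no trend, a replicate block, sums per locus, other thresholds and each library left out.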

Additional observations from a re-analysis of the deposited data

How the results depend on the processing

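The direction of the 186 named calls was the same under every alternative that tested them, and a filter of 5 RPKM kept 177 of them. No fit that left out 1 library could reverse these signs, because the groups did not overlap in any named call. Of the 186 calls, 57 were made in each of the 6 fits that left out 1 library, 16 in none. Leaving out a library gave 337 to 1777 higher and 134 to 2553 lower transcripts, the lowest counts without control replicate 1, and medians of all tested transcripts from -0.373 to -0.220. Each of these fits has 2 residual degrees of freedom in place of 3, and the cause of the drop was not tested. With no filter on low values 2438 transcripts were lower and the median was -0.159, since 38453 transcripts were then tested. With the 4 dehydration and control libraries alone 2248 were lower, with 2 residual degrees of freedom in place of 3. At an adjusted p under 0.05 the lower count was 6214, and at an unadjusted p under 0.05 the counts were 3827 higher and 6596 lower. The median was -0.173 with a filter of 5 RPKM, -0.0156 after median-ratio scaling and -0.0390 after quantile normalization, which by construction move the centre of the distribution. Other settings left both counts within 1.5 times of the values reported.

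The replicate differences of dehydration and control correlated at 0.0623. Those of rehydration and control correlated at 0.142, and those of rehydration and dehydration at 0.205. Whether libraries with the same replicate number share a batch was not tested. With the replicate number as a block 2695 transcripts were higher and 3933 lower, and 182 of the 186 named calls held. The RPKM table gives relative depth only, and no limit in reads is given here for a value of 0.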

Other observations

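Called loci often lay beside loci called in the same direction. Among loci with a higher call, the next tested locus was also called higher for 17.2%, against 11.2% of all tested loci, and among loci with a lower call it was called lower for 22.1%, against 17.5% of all tested loci. Runs of at least 4 neighbouring loci called the same way numbered 18 for higher and 33 for lower calls. The longest ran over 6 higher loci from LOC_Os11g47500 to LOC_Os11g47560, which include a class III chitinase, and over 7 lower loci from LOC_Os02g37654 to LOC_Os02g37800. LOC_Os11g47500 had 178 and 60.3 RPKM in dehydrated shoots, against 0.888 and 1.35 RPKM in control shoots, and the chitinase LOC_Os11g47510 had 2.13 and 5.46 RPKM in dehydrated shoots and was listed at 0 in both control libraries. In the lower run LOC_Os02g37700 had 0 and 0.429 RPKM in dehydrated shoots, against 47.5 and 43.9 RPKM in control shoots. These runs were chosen after their values were seen, and neighbouring copies of a gene family may share reads.

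Models of the same locus moved in opposite directions at 11 loci. At LOC_Os12g37530 model 2 had 52.0 and 28.9 RPKM in dehydrated shoots, against 1.68 and 2.44 RPKM in control shoots, while model 1 had 0.235 and 0.498 RPKM in dehydrated shoots, against 35.5 and 33.5 RPKM in control shoots. At LOC_Os06g17285 model 1 had 7.89 and 10.1 RPKM in dehydrated shoots, against 0.178 and 0 RPKM in control shoots, and model 2 was listed at 0 in both dehydration libraries with 10.6 and 13.0 RPKM in control shoots. The heat shock protein DnaJ locus LOC_Os03g18200 showed the same kind of exchange, with model 2 at 13.9 and 10.4 RPKM in dehydrated shoots, against 2.48 and 1.71 RPKM in control shoots, and model 1 at 8.99 and 14.6 RPKM in dehydrated shoots, against 84.3 and 64.3 RPKM in control shoots. Reads that fit several models are split by the mapping program in a way not stated, so that these values describe the table and not measured isoforms.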
